A study of Mus musculus with 2 samples.

Results

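The 8 genes described here encode inhibitory checkpoint receptors, the membrane proteins that restrain activated lymphocytes: Pdcd1, Ctla4, Lag3, Havcr2, Tigit, Cd160, Btla and Entpd1. The rule names the genes and uses no measured value, although they were chosen with earlier results of these data known, and all 8 were present among the 32285 genes of both count matrices. Immune cells were profiled by scRNA sequencing in 2 libraries of live CD45+ cells sorted from liver tumors of the lenvatinib-resistant Trp53KO/MYCOE mouse model of hepatocellular carcinoma (HCC). The tumors were raised in male wild-type C57BL/6 J mice of 6 to 8 weeks by hydrodynamic tail vein injection of plasmids that carry human MYC and a guide RNA against Trp53 together with the sleeping beauty transposase. Both groups therefore share the same oncogene, the same guide and a period of 25 days of lenvatinib at 30 mg/kg, begun 12 days after plasmid injection and meant to select for resistance. After that period 1 group went on with lenvatinib, an inhibitor of several receptor tyrosine kinases, and the other received lenvatinib together with palbociclib, an inhibitor of CDK4/6, at 100 mg/kg (combo). Hydrodynamic injection delivers plasmids mainly to hepatocytes, so the immune cells are those of the wild-type host, and the number of mice behind each library was not given in the sources used here. With 1 library per condition there is no replicate check, treatment and library cannot be told apart, and no p-value was computed.

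Checkpoint receptors are induced when T cells meet antigen, and they dampen signalling from the T-cell receptor or from costimulatory receptors. In tumors and chronic infection several of them are kept at a high level together, a state known as exhaustion. PD-1 (Pdcd1) binds PD-L1 and PD-L2 and recruits the phosphatase SHP2, whereas CTLA-4 competes with Cd28 for CD80 and CD86. LAG-3 binds MHC class II, TIM-3 (Havcr2) binds galectin-9 and CEACAM1, and TIGIT competes with Cd226 for the poliovirus receptor. BTLA and CD160 both bind HVEM (Tnfrsf14), and CD39 (Entpd1) is not a receptor for a cell surface ligand but an enzyme that breaks down extracellular ATP on the way to adenosine. Several of these genes are also used outside T cells, so each was followed over gates for lymphoid and myeloid cells.

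The libraries held 14509 and 11989 cell barcodes under lenvatinib and combo, of which 14201 and 11613 remained with at most 6000 genes and at most 25% mitochondrial counts, at a median of 5541 and 5754 unique molecular identifiers (UMIs, which count each captured molecule once) per cell. The libraries shared 49 barcodes. Cells were placed in 10 gates by UMIs of defining genes, and 27.2% and 25.4% of the cells fell in none. The CD8 gate (Cd3e and Cd8b1) held 3273 and 2524 cells, the CD4 gate (Cd3e and Cd4) 395 and 493, the Foxp3 gate 392 and 50, and the natural killer (NK) gate (Ncr1 without Cd3e) 2645 and 1205. A gate of T cells with no UMI of Cd4, Cd8a, Cd8b1 or Foxp3 (DN) held 1936 and 1519. The B gate held 414 and 524 cells, and the myeloid gates held plasmacytoid dendritic (pDC; 310 and 322), conventional dendritic (DC; 105 and 104), Csf1r (197 and 439) and Csf3r cells (677 and 1483). Markers that were not used for gating were in place: Cd8a was seen in 85.2% and 85.7% of CD8 gate cells, Ikzf2 in 96.2% and 88.0% of Foxp3 gate cells, Klrb1c in 82.7% and 84.6% of NK gate cells, and S100a8 in 89.7% and 99.2% of Csf3r gate cells. The DN gate was mixed, since Klrb1c, a marker of NK and NKT cells, was seen in 40.5% and 36.5% of its cells, and the CD4 gate held Ikzf2 in 41.5% and 27.8% of its cells. S100a8, a neutrophil gene, had a UMI in 57.7% of CD8 gate cells under lenvatinib and in 96.9% under combo. Empty droplets were not analysed here, so the source of this RNA was not tested. Levels are given as CPM, the UMIs of a gene summed over the cells of a gate and scaled to the gate's UMI total, with 95% intervals, and shares of cells are given after each cell was thinned to 2000 UMIs. All intervals cover counting error only, and a lower CPM in a gate cannot be told apart from fewer expressing cells within it.

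Each receptor had its own distribution over the gates (plot of levels by gate). The order below compares gates for 1 gene and not genes with each other. Ctla4 was highest in the Foxp3 gate, at 769 CPM (95% interval 734 to 806) under lenvatinib and 1165 CPM (1045 to 1294) under combo. The CD4 gate followed with 252 and 329 CPM, then the CD8 gate with 82.1 and 162 CPM, the DN gate with 48.1 and 79.2 CPM and the NK gate with 29.4 and 62.2 CPM, and the intervals of these neighbours did not overlap in either library. In the Csf3r gate, which should lack it, Ctla4 stood at 17.4 and 15.1 CPM, a level that was not clearly below the B gate under lenvatinib, at 18.0 CPM.

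Pdcd1 was also a T-cell gene in these data. It stood at 77.9 CPM (66.9 to 90.1) in the Foxp3 gate, 26.3 CPM in the CD4 gate and 24.4 CPM in the CD8 gate under lenvatinib. Under combo the 3 gates lay at 60.6 (35.9 to 95.8), 51.8 and 51.3 CPM, with overlapping intervals. Outside T cells it reached at most 6.51 CPM, and no UMI was seen in the DC gate under lenvatinib, where 3 UMIs would be 2.14 CPM. Tigit had the fewest UMIs of the 8 in both libraries, with at most 10.4 CPM in any gate. Its UMIs lay mostly in T and NK gates, with at most 6 in any myeloid gate, and none was seen in the B gate, where 3 UMIs would be 1.86 and 1.01 CPM.

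Cd160 had another order. It was highest in the NK gate, at 133 CPM (128 to 138) and 159 CPM (151 to 166), followed by the DN gate at 110 and 98.1 CPM and the CD8 gate at 80.4 and 96.1 CPM, whereas the CD4 gate had only 27.1 and 18.0 CPM. The DN and CD8 gates did not differ beyond their intervals under combo. CD160 is known as a receptor of NK cells and cytotoxic T cells. Of all Cd160 UMIs, 34.3% under lenvatinib and 30.02% under combo lay in NK gate cells.

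The remaining 4 genes had a large share of their UMIs outside T cells. Btla was highest in the B gate, at 136 CPM (119 to 155) and 74.6 CPM (65.1 to 85.1), and next in the DC gate, at 84.2 and 48.8 CPM. Lag3 was highest in the pDC gate, at 87.5 CPM (76.5 to 99.6) and 98.7 CPM (88.9 to 109), more than in any T-cell gate, where it ranged from 8.06 to 33.7 CPM. Havcr2 was highest in the DC gate, at 67.1 and 64.0 CPM, and in the Csf1r gate, at 62.2 and 66.4 CPM, and these neighbours overlapped in both libraries. Entpd1 was highest in the Csf3r gate, at 204 CPM (186 to 224) and 117 CPM (111 to 123), and next in the Csf1r gate, at 73.6 and 49.3 CPM. In total, myeloid gates held 25.0% and 41.4% of all Entpd1 UMIs and 25.3% and 32.8% of all Havcr2 UMIs, but 0.559% and 2.01% of all Pdcd1 UMIs.

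**Figure D1:**
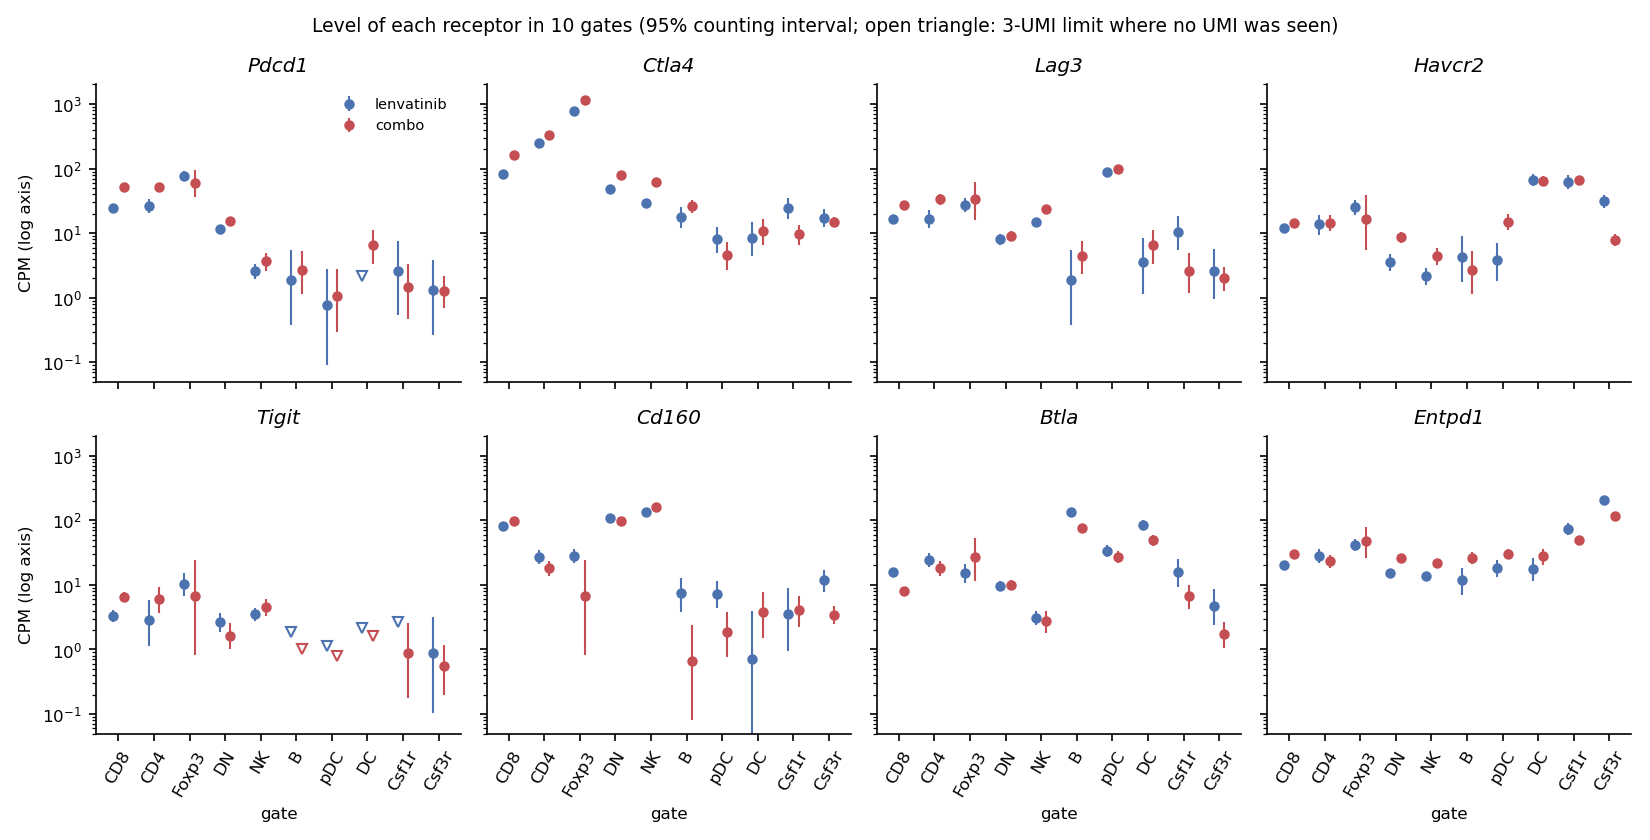
Level of each of the 8 receptor genes in CPM (log axis) in 10 gates, with lenvatinib in blue and combo in red. Bars are 95% Poisson counting intervals and open triangles mark the 3-UMI limit of gates with no UMI. Ctla4 peaks in the Foxp3 gate, Cd160 in the NK gate, Btla in the B gate, Lag3 in the pDC gate and Entpd1 in the Csf3r gate in both libraries.

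In the CD8 gate, 5 of the 8 receptors were past 1.5-fold higher under combo and 1 was past 1.5-fold lower. Over all 11703 genes of the gate with at least 50 UMIs in both libraries together, 7.64% were past 1.5-fold higher and 12.7% past 1.5-fold lower. The median log2 ratio was 0.64 over the 8 receptors and -0.13 over all genes. Pdcd1 stood at 24.4 CPM (690 UMIs) under lenvatinib and 51.3 CPM (962 UMIs) under combo, a ratio of 2.10 (95% interval 1.91 to 2.32). Ctla4 had 82.1 CPM (2322 UMIs) and 162 CPM (3043 UMIs), a ratio of 1.98 (1.87 to 2.09). Tigit went from 3.33 to 6.46 CPM on only 94 and 121 UMIs, a ratio of 1.94 (1.47 to 2.57). These 3 receptors had the largest ratios of the 8 in the gate.

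Lag3 and Entpd1 were past the fold by a smaller margin. Lag3 lay at 16.8 and 27.2 CPM, a ratio of 1.62 (1.43 to 1.84). Entpd1 lay at 19.99 and 29.99 CPM, a ratio of 1.5005 (1.33 to 1.69), just at the limit. The neutrophil gene S100a8 moved with it, at 522 and 5892 CPM in the same gate. At the ratio of Entpd1 to S100a8 seen in the Csf3r gate, this S100a8 would bring 1.81 and 5.61 CPM of Entpd1, and the level left is 18.2 and 24.4 CPM, a ratio of 1.34. For Pdcd1, Ctla4, Lag3 and Tigit the same step took off at most 0.723 CPM. The step assumes that S100a8 came with each receptor at the ratio seen in the Csf3r gate of the same library, which was not tested.

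The 3 other receptors differed from these. Havcr2 was at 12.03 and 14.6 CPM, a ratio of 1.22 (1.03 to 1.43), and Cd160 at 80.4 and 96.1 CPM, a ratio of 1.20 (1.12 to 1.27), so that both were below 1.5-fold. Btla went the other way, from 15.6 CPM (441 UMIs) to 7.95 CPM (149 UMIs), a ratio of 0.510 (0.420 to 0.615). BTLA is known as a receptor of resting as well as activated lymphocytes. The same direction was seen for Btla in the B gate, where it went from 136 to 74.6 CPM, a ratio of 0.548 (0.453 to 0.663), and in the DC gate, where it went from 84.2 to 48.8 CPM, a ratio of 0.580 (0.436 to 0.769). The DC gate ratio was 0.721 pooled over 20 further thinning draws, no longer past 1.5-fold lower, and the B gate ratio was 0.704 with every cell weighted equally. In the B gate Pax5, which encodes a factor of B-cell identity, was also lower under combo, at 504 and 184 CPM, and the median log2 ratio of all genes of that gate was -0.38. The part of Pax5 and of this shift in the Btla result was not tested.

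**Figure D2:**
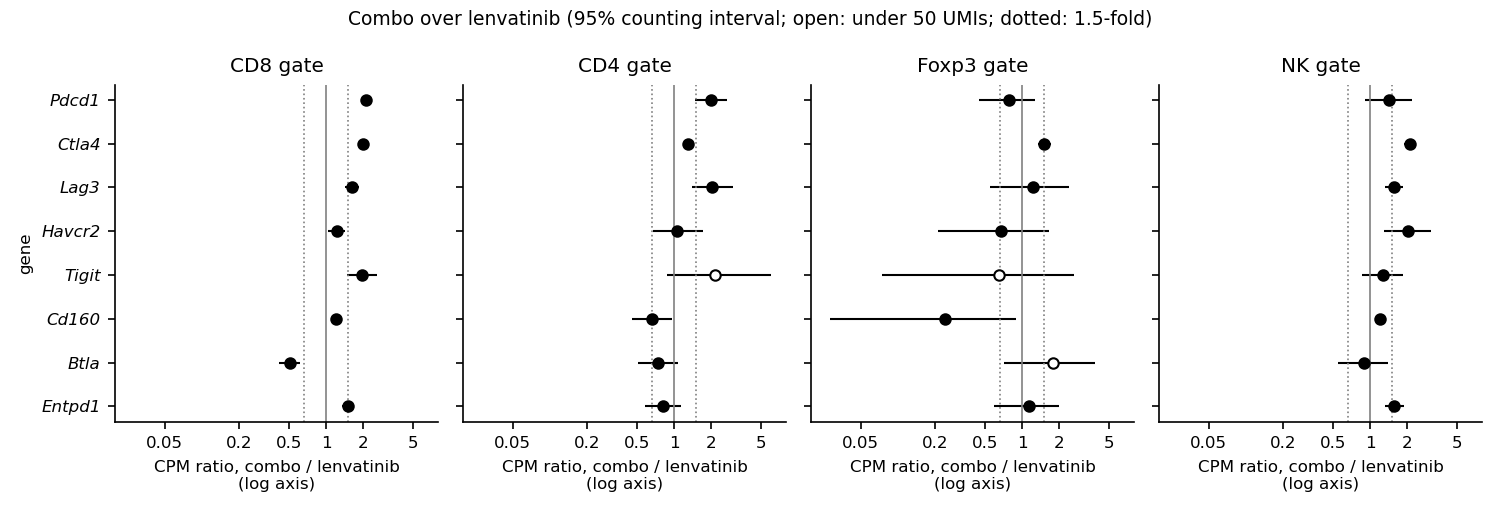
Ratio of CPM under combo to CPM under lenvatinib (log axis) for the 8 receptors in the CD8, CD4, Foxp3 and NK gates, with 95% counting intervals, a solid line at 1 and dotted lines at 1.5-fold. In the CD8 gate Pdcd1, Ctla4 and Tigit lie near 2 and Btla near 0.5, whereas intervals in the Foxp3 gate, with 50 combo cells, are wide.

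The promoters of the 2 receptors with the largest CPM ratios in the CD8 gate and of the receptor that went the other way are given below. They show the sequence at the annotated start of genes whose summed levels differed in opposite directions in the same gate. They are RefSeq windows on GRCm38.p6, 250 bases before to 50 bases after the start, read along the gene. Capitals mark matches on either strand to the core motifs of NFAT (GGAAA), AP-1 (TGANTCA) and Runx (TGTGGT), factors known to act downstream of T-cell activation or in T-cell lineages. The Pdcd1 window is chr1:94052504-94052803 on the minus strand, the Ctla4 window is chr1:60908775-60909074 on the plus strand, and the Btla window is chr16:45224087-45224386 on the plus strand.
Pdcd1: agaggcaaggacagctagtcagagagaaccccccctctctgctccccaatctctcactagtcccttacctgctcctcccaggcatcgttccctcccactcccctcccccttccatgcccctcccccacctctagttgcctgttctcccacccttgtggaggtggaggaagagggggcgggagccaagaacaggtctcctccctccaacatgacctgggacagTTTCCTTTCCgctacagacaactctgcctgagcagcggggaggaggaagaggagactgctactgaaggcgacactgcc
Ctla4: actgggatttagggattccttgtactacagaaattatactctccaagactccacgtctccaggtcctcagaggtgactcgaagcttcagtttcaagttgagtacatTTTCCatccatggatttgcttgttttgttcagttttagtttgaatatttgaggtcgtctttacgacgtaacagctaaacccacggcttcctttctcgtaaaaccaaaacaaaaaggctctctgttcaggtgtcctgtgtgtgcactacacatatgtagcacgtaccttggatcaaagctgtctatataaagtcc
Btla: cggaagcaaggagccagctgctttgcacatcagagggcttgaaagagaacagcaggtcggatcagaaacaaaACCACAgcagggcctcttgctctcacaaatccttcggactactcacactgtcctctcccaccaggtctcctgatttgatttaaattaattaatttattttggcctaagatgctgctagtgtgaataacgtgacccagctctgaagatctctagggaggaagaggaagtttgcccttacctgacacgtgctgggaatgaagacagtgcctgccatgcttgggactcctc
The Pdcd1 window held 2 matches to the NFAT core, and the Ctla4 window held 1. The Btla window held 1 match to the Runx core and none to the NFAT core. The NFAT core is short and was present in 61.3% of 32851 RefSeq promoter windows of the same length, the AP-1 motif in 7.81% and the Runx core in 16.8%, so these matches are a description of the windows only. The genes themselves span chr1:94038305-94052553 (Pdcd1), chr1:60887000-60915832 (Ctla4) and chr16:45224315-45257670 (Btla) on mm10. The Ctla4 window lies inside the span of that gene, as the RefSeq start used here is not the start of the span.

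Detection per cell went in the same direction as the CPM in thinned CD8 gate cells. After thinning, Pdcd1 had a UMI in 5.61% (95% interval 4.84 to 6.47) of 3189 CD8 gate cells under lenvatinib and in 10.6% (9.38 to 11.8) of 2490 under combo. At full depth, with medians of 7367 and 5920 UMIs per cell, it had a UMI in 12.8% and 21.7%. In the B gate, which should lack Pdcd1, the thinned share was 0.515% of 388 cells and 0 of 506 cells, at median depths of 3287 and 3605 UMIs. At a floor of 3 cells, the 0 allows a share of up to 0.593%. Ctla4 was seen in 14.9% and 24.9% of CD8 gate cells, against 3.35% and 2.17% in the B gate. Tigit was seen in 0.690% and 1.69%, Lag3 in 3.51% and 6.02%, and Entpd1 in 4.77% and 6.75%. Havcr2, at 2.79% and 3.21%, had overlapping intervals, and Btla was lower under combo, at 2.88% and 1.69%. Cd160 was seen in 12.8% and 15.7% of thinned cells, but at full depth in 36.2% and 34.1%, the other direction. Thinned cells with a UMI held on average 1.18 and 1.23 UMIs of Pdcd1 and 1.44 and 1.52 UMIs of Ctla4.

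More CD8 gate cells carried several receptors under combo. At least 1 of the 8 was seen in 35.6% (33.9 to 37.2) of cells under lenvatinib and 48.9% (46.9 to 50.9) under combo. At least 2 were seen in 317 of 3189 cells, or 9.94% (8.92 to 11.03), and in 410 of 2490 cells, or 16.5% (15.0 to 18.0), a ratio of 1.66. In 20 further thinning draws this ratio lay between 1.58 and 1.83. At least 3 were seen in 2.10% and 4.18%, and the highest number in 1 thinned cell was 5 in both libraries. At full depth the shares with at least 2 were 32.5% and 42.8%, a ratio of 1.32. The NK gate had at least 2 receptors in 2.45% and 4.79% of cells and the DN gate in 2.88% and 5.53%, with intervals that did not overlap in either gate. The CD4 gate had them in 9.45% and 11.1% and the Foxp3 gate in 23.1% and 29.5%, with overlapping intervals.

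**Figure D3:**
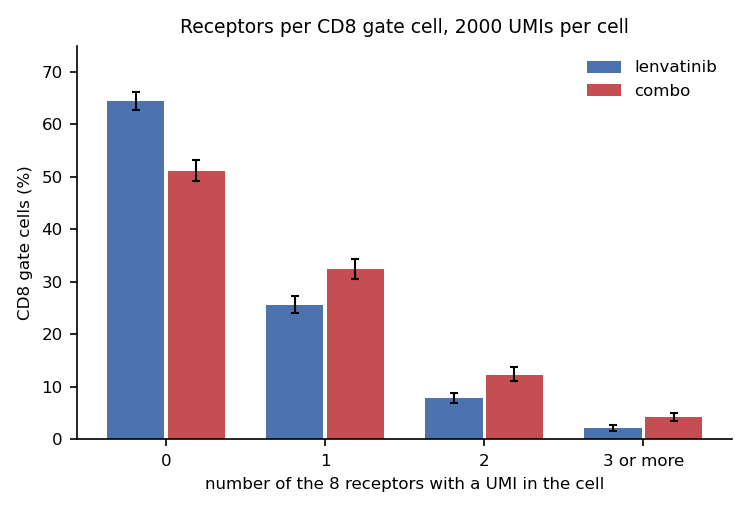
Share of CD8 gate cells in percent with UMIs of 0, 1, 2 or at least 3 of the 8 receptors after thinning to 2000 UMIs, with lenvatinib in blue (3189 cells), combo in red (2490 cells) and exact 95% binomial intervals. Cells with none make up 64.4% under lenvatinib and 51.1% under combo, and every class with 1 or more receptors is larger under combo.

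The receptors were not spread over CD8 gate cells independently of each other. Of 28 receptor pairs, 10 under lenvatinib and 9 under combo were found together in more cells than the product of both shares, by the interval of the observed share, and none in fewer. The number depended on the draw, and in 20 further thinning draws it lay between 9 and 14 under lenvatinib and between 4 and 13 under combo. Pdcd1 and Ctla4 were seen together in 72 cells under lenvatinib, 2.26% (1.77 to 2.83) against a product of 0.834%, and in 122 cells under combo, 4.90% (4.09 to 5.82) against 2.63%. Pdcd1 and Lag3 met at 3.34 and 2.34 times the product, Pdcd1 and Havcr2 at 3.20 and 1.89 times, and Lag3 and Havcr2 at 3.20 and 2.70 times. Of the cells with Pdcd1, 40.2% under lenvatinib and 46.4% under combo also had Ctla4. Every pair with Btla or Tigit had an interval that held the product, although Tigit with 22 and 42 positive cells and Btla with 92 and 42 left little to compare. In the CD4 gate 1 of 28 pairs in each library lay above the product (Ctla4 with Havcr2 in 6 cells under lenvatinib, Lag3 with Havcr2 in 3 cells under combo), and in the Foxp3 gate none did.

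**Figure D4:**
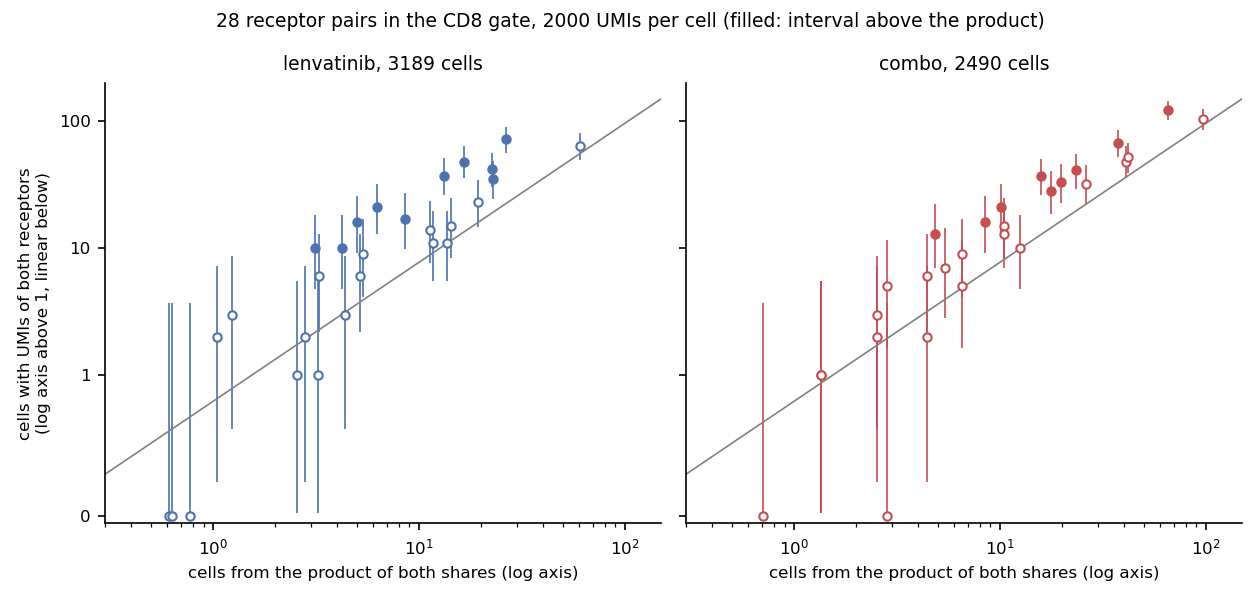
Number of CD8 gate cells with UMIs of both receptors of a pair (vertical, log above 1) against the number given by the product of both shares (horizontal, log) for 28 pairs, with lenvatinib on the left and combo on the right, all cells thinned to 2000 UMIs. Filled points have a 95% binomial interval above the line of equality (10 and 9 pairs), and open points do not.

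Cycling cells, with at least 2 of 10 mitosis genes, made up 21.0% of the CD8 gate under lenvatinib and 6.70% under combo. Pdcd1, Ctla4 and Btla kept their direction with and without them. Among cells that were not cycling, the ratio was 2.24 (1.99 to 2.52) for Pdcd1, 1.91 (1.79 to 2.03) for Ctla4, 1.78 (1.53 to 2.06) for Lag3 and 0.483 (0.393 to 0.591) for Btla. Among cycling cells, it was 1.88 (1.51 to 2.33) for Pdcd1, 2.19 (1.93 to 2.47) for Ctla4, 1.21 (0.879 to 1.63) for Lag3 and 0.437 (0.225 to 0.779) for Btla. Tigit had a ratio of 2.29 (1.67 to 3.19) among cells that were not cycling and of 0.529 (0.161 to 1.36) among cycling cells, the latter on 34 and 5 UMIs. The difference between the cycling and other cells was not tested for any receptor.

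**Figure D5:**
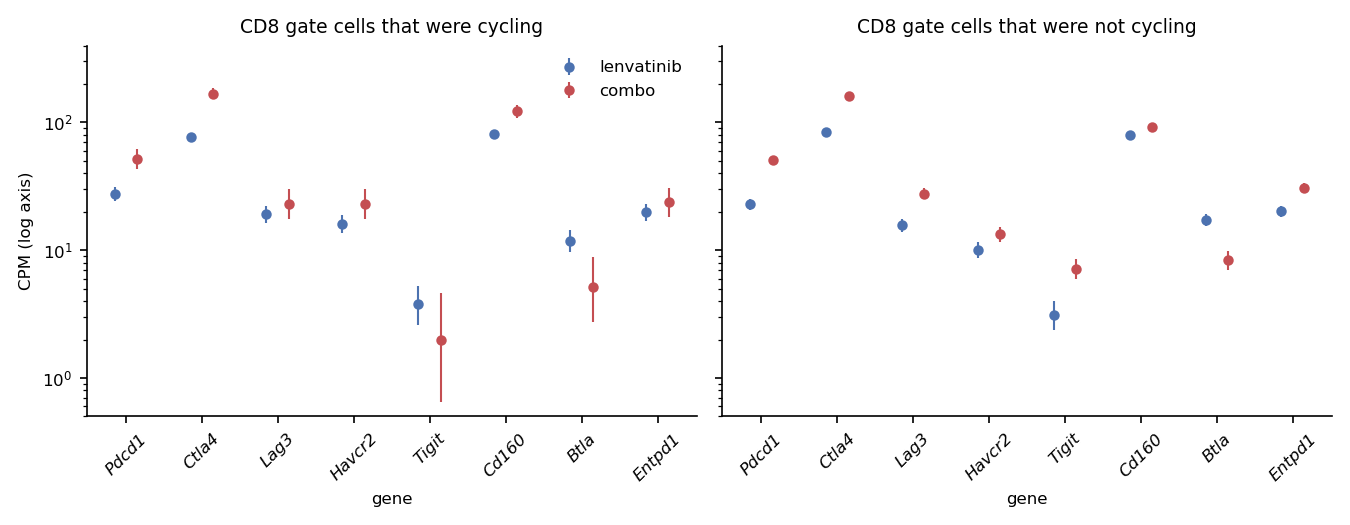
CPM (log axis) of the 8 receptors in CD8 gate cells that were cycling (left) and that were not (right), with lenvatinib in blue, combo in red and 95% Poisson counting intervals. Pdcd1 and Ctla4 are higher and Btla is lower under combo on both sides.

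A panel of 19 genes of T-cell state was used to ask what CD8 gate cells with a receptor shared. In both libraries, cells with Pdcd1 had more often a UMI of 6 panel genes than cells without it, namely Ccl5, Cxcr6, Gzmb, Gzmk, Nr4a2 and Tox, and less often of 2, namely Ccr7 and Tcf7, by intervals that did not overlap. All 8 of these calls were also made in each of 20 further thinning draws. Tox, a factor needed for the exhausted state, was seen in 68.2% of cells with Pdcd1 and 23.8% of cells without under lenvatinib, and in 38.0% and 18.3% under combo. Tcf7, which encodes the TCF1 factor of naive and progenitor cells, was seen in 12.3% and 38.7% under lenvatinib and in 9.13% and 25.9% under combo. Gzmb, a granzyme, was seen in 47.5% and 27.0% under lenvatinib and in 64.3% and 49.0% under combo. For Lag3 the same 6 and 2 panel genes were called, for Ctla4 Bhlhe40 in addition, for Entpd1 all but Cxcr6, and for Havcr2 all but Ccl5. For Havcr2, Cxcr6 was called in 13 of the 20 further draws.

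For Cd160, 1 panel gene was more frequent (Nr4a2) and 1 less frequent (Ccr7) in both libraries, which held in 7 and 15 of the 20 further draws, and Gzmb was called in both libraries in 11 of them. Under combo alone, 7 panel genes were more frequent in cells with Cd160 (Tox, Gzmb, Gzmk, Ifng, Cxcr3, Ccl5 and Nr4a2) and 1 less frequent, against 1 and 1 under lenvatinib. For Btla and Tigit none was called in both. For Tigit, on 22 and 42 positive cells, Tox was more frequent under lenvatinib, at 50% against 26.1%, and Gzmb under combo, at 71.4% against 50.3%. Tcf7 was seen in 48.9% of the 92 cells with Btla and 36.8% of cells without under lenvatinib, and in 38.1% of 42 cells and 23.9% under combo, with overlapping intervals. Across the whole CD8 gate, 3 of the 19 panel genes were past 1.5-fold higher under combo (Gzmb, Gzmk and Ccl5), where 7.64% of 11703 genes were. Another 4 were past 1.5-fold lower (Tcf7, Mki67, Top2a and Tbx21), where 12.7% were. Gzmb went from 285 to 900 CPM, Gzmk from 85.002 to 171 CPM and Tcf7 from 279 to 174 CPM. Tcf7 was thus lower in the library where Pdcd1 and Ctla4 were higher, and the part of a different makeup of the gate in the receptor ratios was not tested. Tox was not past the fold, at 153 and 114 CPM, and its ratio of 0.746 (0.708 to 0.786) lay on the other side of 1 from that of Pdcd1.

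Over all 11703 genes of the CD8 gate, 7.64% were past 1.5-fold higher and 12.7% past 1.5-fold lower. A single lower gene in a list of 10 to 13 is near that share. Of 10 counterpart receptors, which share a ligand or substrate with a member or costimulate T cells, none was past 1.5-fold higher and 1 was lower. That 1 was Nt5e (CD73, the enzyme that follows CD39), at 37.4 and 24.1 CPM. Cd28 was at 473 and 337 CPM, Icos at 74.8 and 94.6 CPM and Cd226 at 122 and 128 CPM. Of 13 other inhibitory receptors, 2 were past 1.5-fold higher, Ceacam1 with 2.41 and 6.72 CPM and Lilrb4a with 80.1 and 129 CPM, and 1 was lower, Adora2a, the adenosine receptor, with 32.6 and 21.2 CPM. Of 12 genes of inhibitory signalling none was higher and 1 was lower, Sh2d1b1, at 4.28 and 1.92 CPM. The phosphatase genes Ptpn6 and Ptpn11 were at 139 and 100 CPM and at 47.2 and 37.4 CPM. The medians of the log2 ratio were 0.14 for counterpart receptors and 0.14 for other inhibitory receptors, and for inhibitory signalling the median was -0.26. Of 12 ligand genes, 10 had at least 50 UMIs in this gate, of which 4 were past 1.5-fold higher and 2 lower, with a median log2 ratio of 0.35. The higher ones were Cd80 with 2.72 and 5.12 CPM, Cd86 with 11.7 and 19.2 CPM, Lgals3 with 72.7 and 206 CPM and Ceacam1, which is also among the other inhibitory receptors. The lower ones were Lgals9 with 79.8 and 51.3 CPM and Icosl with 4.85 and 2.67 CPM. Genes of myeloid cells were also higher in this gate under combo, with S100a8 at 522 and 5892 CPM, Lyz2 at 78.4 and 684 CPM and Retnlg at 22.5 and 571 CPM. The part of such RNA in the ligand values was not tested.

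In the CD4 gate, 2 of the 7 receptors with at least 50 UMIs were past 1.5-fold higher under combo, where 4.48% of 8028 genes were, and 1 was lower, where 21.2% were. Pdcd1 was at 26.3 CPM (65 UMIs) and 51.8 CPM (170 UMIs), a ratio of 1.97 (1.47 to 2.66). Lag3 was at 16.6 CPM (41 UMIs) and 33.5 CPM (110 UMIs), a ratio of 2.02 (1.40 to 2.97). Ctla4 was at 252 and 329 CPM, a ratio of 1.30 (1.18 to 1.44), and Cd160 was lower, at 27.1 and 18.0 CPM, a ratio of 0.663 (0.460 to 0.956). The Cd160 ratio was 0.915 without exclusion of other lineages and 0.807 pooled over 20 further thinning draws, neither past 1.5-fold. Havcr2, Btla and Entpd1 had intervals that held 1. When the exclusions of Foxp3, Cd8a and Cd8b1 were dropped together, the ratio was 1.18 for Pdcd1 and 0.945 for Ctla4.

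The Foxp3 gate, the gate of regulatory T cells, held 392 cells under lenvatinib and only 50 under combo. Ctla4, by which regulatory T cells act, was the receptor past 1.5-fold higher of 6 with at least 50 UMIs, where 8.85% of 6181 genes were, and Cd160 was the one past 1.5-fold lower, where 24.8% were. Ctla4 had 1778 UMIs and 346 UMIs, a ratio of 1.51 (1.35 to 1.70), which was 1.95 when 2 UMIs of each gate gene were required and below 1.5-fold under 5 other alternatives, the lowest being 1.36 without the cell filter. It was seen in 66.1% (61.1 to 70.9) of 372 thinned cells under lenvatinib and in 79.5% (64.7 to 90.2) of 44 under combo, with overlapping intervals. Cd160 rested on 65 and 2 UMIs, a ratio of 0.239 (0.0284 to 0.901). This ratio was 0.713 without exclusion of other lineages, 0.704 with every cell weighted equally and 0.790 pooled over 20 further thinning draws, none of them past 1.5-fold lower. Single draws of it ran from 0 to 1.88. Pdcd1 was at 77.9 CPM (180 UMIs) and 60.6 CPM (18 UMIs), a ratio of 0.778 (0.451 to 1.27), an interval that holds 1, so no difference was detectable at this depth.

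In the NK gate, 4 of 8 receptors were past 1.5-fold higher under combo, where 7.95% of 11057 genes were, and none was lower, where 13.1% were. Ctla4 was at 29.4 and 62.2 CPM, a ratio of 2.12 (1.89 to 2.37), Lag3 at 15.1 and 23.7 CPM, a ratio of 1.57 (1.32 to 1.86), and Havcr2 at 2.19 and 4.40 CPM, a ratio of 2.01 (1.31 to 3.10). Lag3 was below 1.5-fold with every cell weighted equally, at 1.34, and pooled over 20 further thinning draws, at 1.28. The Ctla4 ratio pooled over these draws was 1.84, below its interval. Entpd1 was at 13.9 and 21.8 CPM, a ratio of 1.57 (1.31 to 1.87). Here the neutrophil gene S100a8 was at 834 and 12121 CPM, and at the Entpd1 to S100a8 ratio of the Csf3r gate it would bring 2.89 and 11.5 CPM of Entpd1. Under that assumption the Entpd1 level left was 11.005 and 10.3 CPM, a ratio of 0.933. The same step gave a ratio of 2.08 for Ctla4 and 1.56 for Lag3, and the source of the S100a8 RNA was not tested. Cd160, which had the most UMIs of the 8 in this gate, was at 133 and 159 CPM, a ratio of 1.19 (1.12 to 1.27). Tigit was at 3.55 and 4.49 CPM, a ratio of 1.27 (0.861 to 1.85). The Tigit ratio rested on 73 and 48 UMIs.

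In the DN gate, Ctla4 was at 48.1 and 79.2 CPM, a ratio of 1.64 (1.49 to 1.82) that was 1.34 with every cell weighted equally. Pdcd1 was at 11.6 and 15.7 CPM, a ratio of 1.36 (1.09 to 1.69), and Cd160 at 110 and 98.1 CPM, a ratio of 0.896 (0.829 to 0.967). The Pdcd1 ratio was 1.92 pooled over 20 further thinning draws and ran from 1.11 to 2.21 over all alternatives. Havcr2 was at 3.58 and 8.63 CPM, a ratio of 2.41 (1.70 to 3.46). Entpd1 was at 15.5 and 26.3 CPM, a ratio of 1.69 (1.42 to 2.03) that was 0.991 with every cell weighted equally. The Entpd1 level left in the DN gate after taking off the S100a8 part gave a ratio of 1.55. Tigit went the other way, from 2.69 CPM (36 UMIs) to 1.64 CPM (20 UMIs), a ratio of 0.612 (0.336 to 1.09), an interval that holds 1. In the B gate, Entpd1 was at 11.8 and 26.2 CPM, a ratio of 2.23 (1.34 to 3.90), and the level left after taking off the S100a8 part was 11.1 and 12.5 CPM, a ratio of 1.13.

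Among the myeloid gates the receptors went in different directions. In the Csf1r gate, none of 3 receptors with at least 50 UMIs was past 1.5-fold higher, where 7.44% of 7355 genes were, and 1 was lower, where 17.2% were. That 1 was Ctla4, at 24.5 CPM (28 UMIs) and 9.56 CPM (33 UMIs), a ratio of 0.390 (0.228 to 0.670). In both libraries its interval overlapped that of the Csf3r gate, which should lack Ctla4. Without exclusion of other lineages the ratio was 0.810 and no longer past 1.5-fold. Havcr2, a receptor of macrophages and dendritic cells too, was at 62.2 CPM (71 UMIs) and 66.4 CPM (229 UMIs), a ratio of 1.07 (0.814 to 1.41), and Entpd1 at 73.6 and 49.3 CPM, a ratio of 0.669 (0.512 to 0.880). Among monocyte and macrophage markers of this gate, C1qa was at 837 and 129 CPM and Lyz2 at 5260 and 10339 CPM. Adgre1 was at 102 and 86.4 CPM and Ly6c2 at 485 and 526 CPM, and H2-Ab1 was at 1976 and 705 CPM. The part of a different makeup of the gate in its receptor ratios was not tested. In the Csf3r gate Entpd1 had 470 UMIs and 1281 UMIs, a ratio of 0.572 (0.514 to 0.637), and Havcr2 had 72 and 86 UMIs, a ratio of 0.251 (0.181 to 0.348). This Havcr2 ratio was 0.815 without exclusion of other lineages, no longer past 1.5-fold, and 0.421 with every cell weighted equally, and the median log2 ratio of all genes of the gate was -0.47. The Entpd1 ratio was 0.776 without exclusion of other lineages. The Csf3r gate was shallow under lenvatinib, with a median of 2509 UMIs against 4764 under combo. In the pDC gate Lag3 differed little, at 87.5 and 98.7 CPM, a ratio of 1.13 (0.954 to 1.34), and Havcr2 went from 3.82 CPM (10 UMIs) to 15.0 CPM (56 UMIs), a ratio of 3.93 (1.99 to 8.65).

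Of 12 ligand genes, 8 had at least 50 UMIs in the Csf1r gate. Of these, 1 was past 1.5-fold higher (Ceacam1, a ligand of TIM-3, at 66.6 and 102 CPM), where 7.44% of 7355 genes were. Another 2 were past 1.5-fold lower (Cd274 and Icosl), where 17.2% were. Cd274, which encodes PD-L1, was at 88.5 CPM (101 UMIs) and 50.7 CPM (175 UMIs), a ratio of 0.573 (0.446 to 0.740). Cd86, a ligand of CTLA-4, was at 118 and 94.8 CPM, and Lgals9, which encodes galectin-9, at 90.2 and 73.9 CPM. The part of a different makeup of the Csf1r gate in these ligand values was not tested. In the Csf3r gate Cd274 was at 146 and 43.2 CPM and Cd80, the other ligand of CTLA-4, at 139 and 46.1 CPM.

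The genes whose pattern over the 20 points of 10 gates and 2 libraries was most like that of each receptor were taken from 8475 genes that reached 20 CPM, with Pearson's r of log2(CPM + 1) as a description only, since points of 1 library share its depth. For Cd160 these were Crtam (r = 0.98), Ctsw (0.96) and Nkg7 (0.95), genes of cytotoxic lymphocytes. For Ctla4 they were Icos (0.94), the costimulatory receptor, Igflr1 (0.94) and Rexo5 (0.93). For Pdcd1 they were Art2b (0.96), Aopep (0.93) and Eva1b (0.93), and for Tigit Nmb (0.94), Abcb1a (0.93) and Tox (0.93). For Lag3, which was highest in the pDC gate, they were Nudt19 (0.92), Rnaset2b (0.92) and Klhl42 (0.90). Btla was most like Map4k1 (0.89), H2-Oa (0.88), an MHC class II gene of B cells, and Usp6nl (0.87). Entpd1 was most like Cd300ld (0.92), Slc16a3 (0.91) and Gm28192 (0.91), and Havcr2 had the lowest likeness to any gene, with Tnip3 (0.86), Med8 (0.85) and Lima1 (0.83).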

How the data were processed

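Single-cell libraries were made from sorted live CD45+ cells with droplet 3′ chemistry. The files deposited by the authors hold unnormalized UMI counts for every gene in every barcode, mapped to mm10. The processing notes name Cell Ranger 5.0.1 and the matrix header names 6.0.1. Libraries were grouped by the labels as lenvatinib (98107503 UMIs) and combo (93583402 UMIs).

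Cells with at most 6000 genes and at most 25% mitochondrial UMIs were kept (308 and 376 cells removed). Scrublet (scanpy 1.11.5, with 6% doublets assumed) called 634 and 320 cells, which were kept here and removed in an alternative. Gates needed 1 UMI of each defining gene and none of the genes of other lineages: CD8, no Cd4 or Foxp3; CD4, no Cd8a, Cd8b1 or Foxp3; Foxp3 with Cd3e, no Cd8b1; NK, no Cd3e or Cd8b1; B, Cd79a and Ms4a1 without Cd3e or Ncr1. Myeloid gates had no Cd3e, Ncr1 or Cd79a: pDC, Siglech and Bst2; DC, Flt3 or Xcr1 with at least 5 H2-Ab1 UMIs and no Siglech; Csf1r without Csf3r; Csf3r without Csf1r. CPM of summed counts carried exact Poisson intervals, ratios exact conditional binomial intervals, and shares of cells thinned to 2000 UMIs exact Clopper-Pearson intervals, all at 95% (scipy 1.17.1). A floor of 3 UMIs, or of 3 cells for a share, was used where none was seen. The background was the share of genes with at least 50 UMIs past 1.5-fold. All 8 receptors, the marker and list genes, and the 3 most like genes of each receptor were eligible to be named. The members and gene lists were chosen with earlier results of these data known. Scripts were tested on simulated data. Thinning used 1 random draw, and 20 further draws were added after seeing the data. A ratio pooled over these draws divides the combo level summed over draws by the lenvatinib level summed over draws. Cells below 2000 UMIs were left out of thinned values, and the others counted equally. Some results were not reported here. Promoters came from RefSeq on GRCm38.p6, which held 7 of the 8 genes (none for Lag3), and gene spans from the GENCODE annotation of mm10. Cell types were not taken from clustering.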

Additional observations from a re-analysis of the deposited data

Results flagged for a closer look

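Several receptors had ratios of combo to lenvatinib whose intervals lay above 1 in one gate and below 1 in another. None of these differences between gates was tested, since each condition had 1 library. Ctla4 had a ratio of 2.12 in the NK gate and 0.390 in the Csf1r gate, with 5 gates above 1 and 1 below. The Csf1r value rested on 28 and 33 UMIs and was 0.810 without exclusion of other lineages. In both libraries the Ctla4 interval of the Csf1r gate overlapped that of the Csf3r gate, which should lack Ctla4. Havcr2 had a ratio of 3.93 in the pDC gate, on 10 and 56 UMIs, and 0.251 in the Csf3r gate, where it was 0.815 without exclusion of other lineages. Cd160 had a ratio of 1.20 in the CD8 gate and 0.239 in the Foxp3 gate, the latter on 65 and 2 UMIs and at 0.790 pooled over 20 further thinning draws. Entpd1 had a ratio of 2.23 in the B gate and 0.572 in the Csf3r gate, and the B gate ratio was 1.13 after the part that went with S100a8 was taken off and 1.17 with every cell weighted equally.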

How the results depend on the processing

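Over 55 ratios, 708 values were recomputed under alternatives. Of these, 649 stayed within the counting interval of the reported ratio and 55 moved beyond it without a called reversal. A reversal was called in 4 values, only where the reported interval excluded 1 and the value lay on the other side of 1. Where the reported interval held 1, a value could cross 1 without such a call. Havcr2 in the Csf1r gate, reported at 1.07, was such a case. A further 3 alternatives gave no value. No paired analysis was possible because each condition had 1 library. Removing doublets, dropping the cell filter, a limit of 10% mitochondrial UMIs, Cd8a in place of Cd8b1 and a total without mitochondrial, ribosomal protein and hemoglobin genes moved no ratio beyond its interval, and the last shifted the median log2 ratio of all CD4 gate genes by 0.10. With 2 UMIs of each gate gene, Ctla4 in the Foxp3 gate had a ratio of 1.95, and Cd160 in the DN gate 1.07 (reported 0.896). Without exclusion of other lineages, which adds cells to the gate, Pdcd1 in the CD4 gate was at 1.18 and Ctla4 there at 0.945. With cells thinned to 2000 UMIs, Tigit in the NK gate was at 1.95 and Havcr2 in the Csf1r gate at 0.744. With every cell weighted equally, Entpd1 in the DN gate was at 0.991 (reported 1.69). The share ratio of CD8 gate cells with at least 2 receptors was 1.32 without thinning. The other alternatives were chosen after seeing the data. Pooled over 20 further thinning draws, that Tigit ratio was 1.37 and that Havcr2 ratio 0.861, and single draws ran from 1.04 to 2.09 and from 0.581 to 1.18. Pdcd1 in the CD8 gate had a pooled ratio of 2.00 and single draws from 1.73 to 2.18. Ctla4 in the CD8 gate had a pooled ratio of 1.70 and single draws from 1.56 to 1.84, all below its reported interval. With Csf3r gate RNA taken off in proportion to S100a8, Entpd1 in the NK gate was at 0.933. Depth limits Tigit, with at most 121 UMIs in any gate, and every receptor in the 50 combo cells of the Foxp3 gate.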
